A study of Homo sapiens with 15 samples.

Results

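SOX9 and 7 related SOX transcription factors (SOX4, SOX5, SOX6, SOX8, SOX11, SOX12 and SOX13) were followed in human osteosarcoma cells treated with rocaglates. The 8 genes were taken by name from the gene tables of the cell lines, which hold 57773 genes for MG-63 and 58051 for Saos2. They were chosen because SOX9 was lower in treated MG-63 cells and higher in treated Saos2 cells, so those SOX9 values are given as a description without a test.

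MG-63 and Saos2 are established human osteosarcoma lines. The labels give both as wild type, with no engineered allele. The data are messenger RNA counts from 15 libraries, all made after 24 h of treatment. MG-63 cells received 5 nM didesmethylrocaglamide (DDR), 25 nM rocaglamide (Roc) or 0.04% DMSO as vehicle, with 2 libraries for each. Saos2 cells received 7 nM DDR, 40 nM Roc or 0.04% DMSO, with 3 libraries for each. Each concentration was the growth-inhibitory IC50 of that compound in that line, so DDR and Roc were used at different concentrations. Both compounds inhibit the RNA helicase eIF4A and differ in the methyl groups of the amide, which DDR lacks. Within a line, DDR and Roc were compared with the same DMSO libraries. All but 1 of the libraries (MG-63 Roc replicate 2, labelled only as a replicate) are described as biological replicates.

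SOX proteins bind DNA through an HMG box and bend it, and they usually act with partner factors. SOX9, a SOXE factor like SOX8, is needed for cartilage formation and is kept low as osteoblasts mature. The SOXD factors SOX5, SOX6 and SOX13 carry a coiled coil and no activation domain of their own, and SOX5 and SOX6 help SOX9 at cartilage enhancers. The SOXC factors SOX4, SOX11 and SOX12 are intronless genes active in progenitor cells, and SOX4 also takes part in osteoblast development in the mouse. Rocaglates clamp eIF4A onto purine-rich stretches of messenger RNA and so hinder scanning of the leader by the ribosome.

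Library totals were between 24506297 and 42541127 counts. A gene was tested in a line when it passed a filter on low counts, which left 15303 genes in MG-63 and 17593 in Saos2. Of the 8 members, 6 passed in each line: SOX5 and SOX8 were below the filter in MG-63, and SOX8 and SOX11 in Saos2. The test was edgeR's quasi-likelihood test with Benjamini-Hochberg adjustment over all genes tested. A gene is said to have risen or fallen only with an adjusted p of at most 0.05 and a log2 fold change of at least 0.5 in size. Fold changes are treated over DMSO on the log2 scale, given with their standard error (SE). Levels are CPM, read counts scaled to library size, with all 15 libraries on a common scale. The p-values measure the spread between 2 or 3 cultures of a line.

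The osteoblast marker list (9 genes, among them COL1A1, COL1A2 and SPARC) summed to 3993 to 5337 CPM over the MG-63 libraries and to 2336 to 2831 CPM over the Saos2 libraries. BGLAP, which encodes osteocalcin, had at most 4 counts in any library, and the osteoblast factor SP7 was high only in Saos2, with 4548 counts or more in every Saos2 library and 0 to 24 counts in MG-63. Markers of blood cells summed to at most 0.55 CPM in any library. Other markers moved with treatment. The keratin KRT18 fell in all 4 comparisons, at -0.83 ± 0.14 (DDR) and -0.89 ± 0.15 (Roc) in MG-63, then -0.84 ± 0.19 (DDR) and -1.28 ± 0.19 (Roc) in Saos2, with the 5 epithelial markers at 9.08 to 31.6 CPM in sum. Endothelial markers summed to 0.42 to 1.35 CPM in treated MG-63 libraries and 2.52 to 3.10 CPM in MG-63 DMSO libraries. Their member CDH5 fell there (-2.39 ± 0.45 for DDR and -1.73 ± 0.43 for Roc), and with Roc did not pass without DMSO replicate 1 (-1.64, adjusted p = 0.0516) or Roc replicate 1 (-1.23, adjusted p = 0.0664). In Saos2 with Roc, the neuronal gene SYT1 rose (0.99 ± 0.10), as did SNAP25 (1.09 ± 0.37), which did not pass in 6 alternatives, with adjusted p up to 0.0710. Neuronal markers summed to 30.7 to 32.9 CPM in those libraries and 15.5 to 17.8 CPM in Saos2 DMSO libraries. The melanocyte factor MITF rose in MG-63 cells given DDR (0.90 ± 0.09) and in Saos2 cells given Roc (0.76 ± 0.20), with TYR and MLANA at 0 in every library. The part of these genes in the SOX values was not tested. The 6 chondrocyte markers summed to 2.40 to 6.95 CPM in MG-63 and 733 to 1155 CPM in Saos2, most of it from HAPLN1, with ACAN at 0 in every Saos2 library. MG-63 DDR replicate 2 stood apart from replicate 1 in several genes that are high in Saos2: COL11A1 had 145 counts there and 1 in replicate 1, HAPLN1 had 112 and 0, SPP1 had 39 and 0, and SP7 had 24 and 0. In the same genes MG-63 DMSO replicate 1 had 50 COL11A1, 15 HAPLN1, 10 SPP1 and 3 SP7 counts, beside 29, 8, 0 and 0 in DMSO replicate 2. The part of these reads in the MG-63 values was not tested, and calls below that change without either library are given with their value.

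The longest purine runs in the leaders of the members are shown because rocaglates act on purine-rich RNA. Positions are on GRCh37, from GENCODE v44 lifted to that build, and the capitals mark the run.
SOX4 (chr6:21594347-21594374, plus strand): AGGGAAAAAGAAAAAAAAAAAAAAAAGA
SOX9 (chr17:70117248-70117266, plus strand): AGGAGGAGAAGAGAAGGGG
SOX11 (chr2:5832713-5832729, plus strand): GGGGGGGAGGGGGGGAG

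SOX4 held the longest run, 28 bases, starting 366 bases into a leader of 784 bases. A run of that length or longer was found in 0.669% of 19294 protein-coding leaders. The run of SOX9 had 19 bases (2.62% of leaders hold one as long) and that of SOX11 had 17 (4.17%). The other members had runs of 5 to 10 bases, and the median over all genes was 7 bases. Over the whole leader, purines made up 51.7% in SOX4, 44.1% in SOX9 and 58.0% in SOX11, beside a median of 50.9%. These leaders had 784, 372 and 338 bases, beside a median of 130. The shares of leaders with such runs are not adjusted for leader length.

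SOX9 (ENSG00000125398) lies on chromosome 17 from 70117161 to 70122557 on the plus strand of GRCh37, with 3 exons. In MG-63, the SOX9 level was 4.66 and 7.65 CPM with DDR, 7.95 and 7.07 CPM with Roc, and 19.2 and 20.1 CPM with DMSO. Every treated MG-63 library lay below both DMSO libraries. In Saos2, the SOX9 level was 112, 114 and 129 CPM with DDR, 124, 132 and 138 CPM with Roc, and 50.3, 61.9 and 61.1 CPM with DMSO. Every treated Saos2 library lay above all 3 DMSO libraries.

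In MG-63, the log2 fold change of SOX9 was -1.66 ± 0.17 for DDR and -1.33 ± 0.17 for Roc (SE, n = 2 against 2). In Saos2 it was 1.02 ± 0.09 for DDR and 1.20 ± 0.09 for Roc (SE, n = 3 against 3). The change in Saos2 minus that in MG-63 was 2.71 ± 0.19 with DDR and 2.58 ± 0.19 with Roc. These are the values the genes were chosen by, and no p is given for them. The 2 MG-63 DDR libraries differed most, and without DDR replicate 2 the DDR fold change of SOX9 in MG-63 was -2.06. SOX9 counts were 151 to 696 in MG-63 libraries and 1758 to 5898 in Saos2 libraries.

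**Figure D1:**
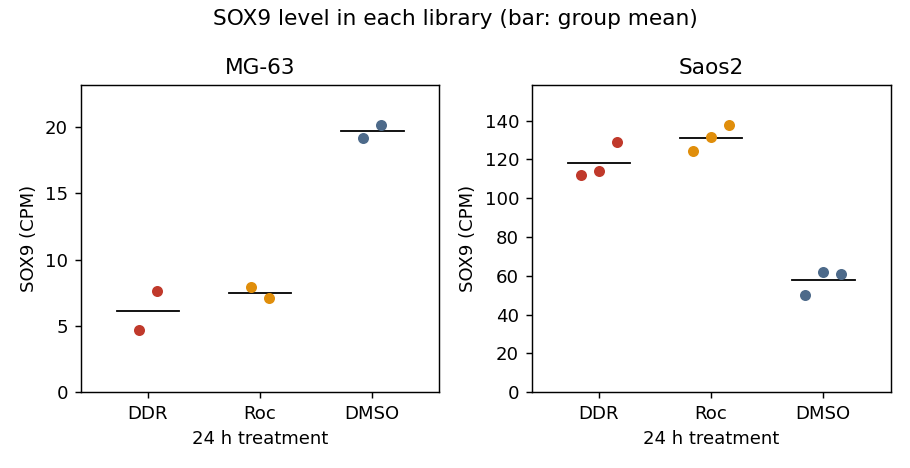
SOX9 level (CPM, y axis from 0) in each library of MG-63 (left) and Saos2 (right) after 24 h with DDR, Roc or DMSO; points are libraries and bars group means. The treated MG-63 libraries sit between 4.66 and 7.95 CPM, below the DMSO libraries, and the treated Saos2 libraries between 112 and 138 CPM, above them.

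For SOX9, the difference between the compounds did not pass after adjustment over all genes. Roc over DDR was 0.33 ± 0.18 in MG-63 (95% interval -0.04 to 0.71, adjusted p = 0.335) and 0.19 ± 0.09 in Saos2 (95% interval 0.01 to 0.37, adjusted p = 0.187), by edgeR. The Saos2 interval, which is not adjusted over genes, excludes 0. The DDR and Roc libraries overlapped in both lines.

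SOX9 was also higher in Saos2 than in MG-63 among the vehicle libraries. With DMSO alone, Saos2 over MG-63 was 1.56 ± 0.13 for SOX9 (adjusted p = 8.35e-11, joint edgeR fit of all 15 libraries), where the median of all 18842 genes was 0.16. With library totals as the only scaling this SOX9 difference was 2.03 and the median of all genes 0.64. Of all genes, 67.7% differed between the lines in this comparison, and line cannot be told apart from any batch of the line's libraries.

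SOX9-AS1, a long noncoding RNA on the other strand that overlaps SOX9, shares no exon bases with it. SOX9-AS1 had 0 to 6 counts in MG-63 libraries, where it was below the filter, and 33 to 76 counts in Saos2 libraries. Its fold change in Saos2 was 0.25 ± 0.36 with DDR (adjusted p = 0.673), while Roc gave 0.24 ± 0.36 (adjusted p = 0.640), neither of which passed the test.

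Relative to exon length, SOX4 was the most abundant member in Saos2 and SOX9 came next. With DMSO, the Saos2 levels were 100.2 ± 3.5 CPM per kb for SOX4, 14.7 ± 1.6 for SOX9, 7.57 ± 0.51 for SOX12, 5.46 ± 0.71 for SOX13, 0.378 ± 0.088 for SOX6 and 0.319 ± 0.092 for SOX5 (SD, n = 3). Neighbours in this order were separated by more than their spread down to SOX13, but SOX6 and SOX5 were not. Length here is that of the merged exons of all transcripts, in both lines. It was 7420 bases for SOX13, 20093 for SOX6 and 11289 for SOX5, against 4076, 9304 and 7076 in their canonical transcripts. SOX4, SOX9, SOX11 and SOX12 have the same length by both measures. The places of SOX13, SOX6 and SOX5 can therefore depend on this choice, which the spread does not cover. By canonical length, SOX13 with DMSO would stand above SOX12 in Saos2 and above SOX11 in MG-63. In MG-63 with DMSO, the order was SOX9 at 5.00 ± 0.17 CPM per kb, SOX4 at 4.24 ± 0.18, SOX12 at 3.17 ± 0.21, SOX11 at 1.20 ± 0.13, SOX13 at 1.18 ± 0.10 and SOX6 at 0.248 ± 0.083 (SD, n = 2), with SOX11 and SOX13 inside their spread.

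The order changed with treatment in MG-63 and not at its upper end in Saos2. With DDR in MG-63, SOX9 stood at 1.57 ± 0.54 CPM per kb, below SOX12 at 4.73 ± 0.58 and SOX4 at 8.14 ± 0.08, and inside the spread of SOX11 at 1.60 ± 0.06. With Roc, SOX9 stood at 1.91 ± 0.16 and SOX4 at 6.45 ± 0.21 CPM per kb. In Saos2, SOX4 and SOX9 stayed the first and the next, at 167 ± 12 and 30.1 ± 2.4 CPM per kb with DDR and 210.1 ± 1.1 and 33.4 ± 1.7 CPM per kb with Roc.

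**Figure D2:**
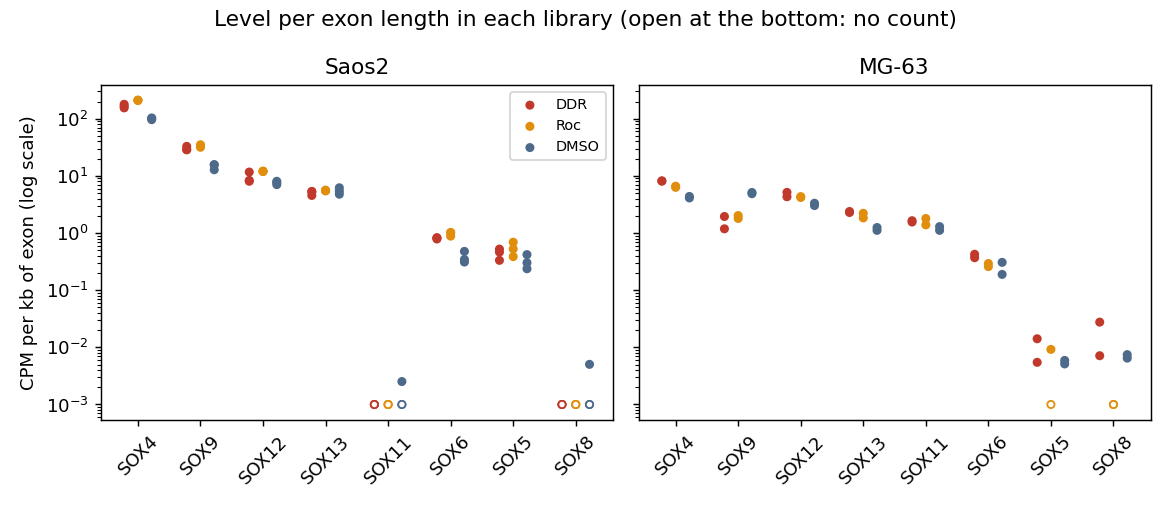
Level of each member per kb of exon (CPM per kb, log axis) in each library of Saos2 (left) and MG-63 (right), coloured by treatment; open points at the bottom are libraries with no count. SOX4 leads in every Saos2 library and reaches 209 to 211 CPM per kb with Roc, and SOX9 lies below SOX12 in treated MG-63 libraries.

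The members other than SOX9 rose or did not pass the test, and none fell. In MG-63, 4 of 5 tested members rose with DDR, where 9.01% of all genes rose and 7.74% fell. With Roc, 2 of 5 rose in MG-63, against 4.57% of all genes that rose and 2.53% that fell. In Saos2, 2 of 5 rose with DDR, against 7.55% of all genes that rose and 6.73% that fell, and 4 of 5 rose with Roc, against 13.5% that rose and 10.4% that fell. The 5 were not the same in the 2 lines, since SOX11 was tested in MG-63 only and SOX5 in Saos2 only. Their median log2 fold change was 0.69 for DDR and 0.49 for Roc in MG-63, then 0.45 for DDR and 0.77 for Roc in Saos2. The medians over all genes were -0.01, 0.01, -0.01 and -0.02 in the same order. Since DDR and Roc share their DMSO libraries, the counts for the 2 compounds in a line are not independent. In MG-63 the DDR count was 3 without DDR replicate 2 or without DMSO replicate 1, and the Roc count was 4 without Roc replicate 2.

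**Figure D3:**
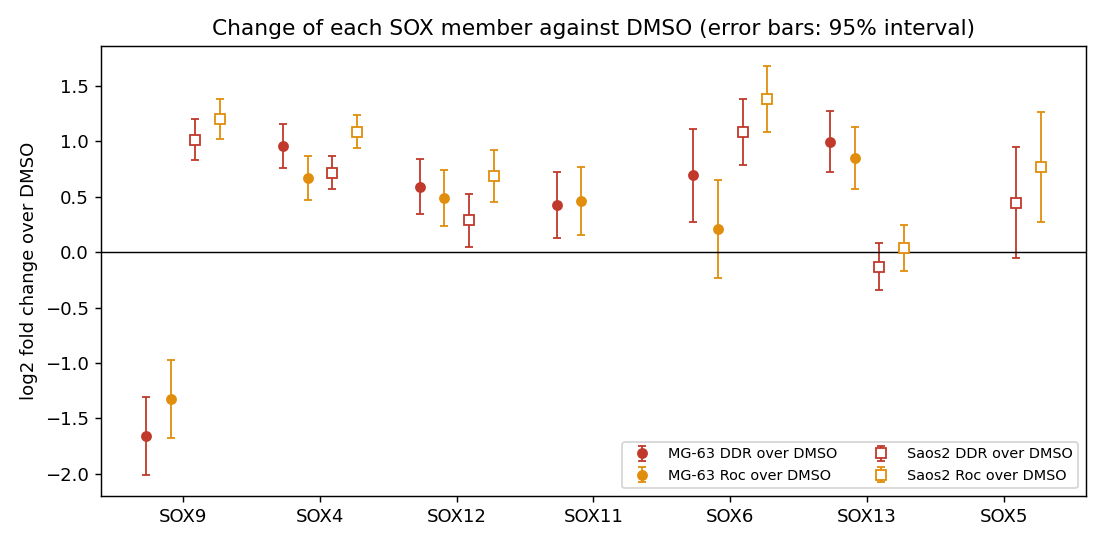
Log2 fold change over DMSO (y axis) of each member tested, with 95% intervals from the edgeR fit; filled circles are MG-63, open squares Saos2, red DDR and orange Roc. SOX9 lies below 0 in MG-63 and above 0 in Saos2, the values the genes were chosen by, so its intervals are a description and no test. SOX13 is above 0 in MG-63, with intervals that include 0 in Saos2.

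SOX4 (ENSG00000124766, chromosome 6, 21593982 to 21598850, plus strand, a single exon), a SOXC activator, rose in all 4 comparisons. In MG-63 its level was 39.3 and 39.9 CPM with DDR, 30.7 and 32.1 CPM with Roc, and 20.0 and 21.3 CPM with DMSO. In Saos2 it was 754, 871 and 809 CPM with DDR, 1022, 1018 and 1029 CPM with Roc, and 469, 502 and 492 CPM with DMSO. No treated library overlapped the DMSO libraries of its line. The log2 fold change in MG-63 was 0.96 ± 0.10 for DDR (adjusted p = 5.15e-08) and 0.67 ± 0.10 for Roc (adjusted p = 3.22e-05). The fold change in Saos2 was 0.72 ± 0.07 for DDR (adjusted p = 1.46e-07) and 1.09 ± 0.07 for Roc (adjusted p = 9.42e-11). SOX4 shares 168 of its 4869 exon bases with a long noncoding RNA on the other strand (ENSG00000283480), and how strand was treated in counting could not be read from the sources at hand.

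SOX4 differed between the compounds in Saos2, by less than the fold minimum. Roc over DDR was 0.37 ± 0.07 in Saos2 (adjusted p = 0.00164), where all 3 Roc libraries lay above all 3 DDR libraries, and -0.28 ± 0.09 in MG-63 (adjusted p = 0.0844), where both Roc libraries lay below both DDR libraries. The change of SOX4 in Saos2 minus that in MG-63 was -0.21 ± 0.11 with DDR (adjusted p = 0.215), while Roc gave 0.46 ± 0.11 (adjusted p = 0.00455, under the fold minimum). Without MG-63 DMSO replicate 1 or Roc replicate 2 the Roc value was 0.51 or 0.50 and passed.

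SOX12 (ENSG00000177732, chromosome 20), the weakest activator of the SOXC group, rose in MG-63 cells given DDR and in Saos2 cells given Roc. Its level in MG-63 was 20.2 and 24.0 CPM with DDR, 20.3 and 19.6 CPM with Roc, and 15.5 and 14.1 CPM with DMSO. The Saos2 level was 39.0, 54.5 and 37.6 CPM with DDR, 55.7, 56.1 and 56.6 CPM with Roc, and 37.6, 35.6 and 32.9 CPM with DMSO. The 3 Roc libraries of Saos2 lay close together and far above DMSO, while the DDR group was spread by replicate 2. The log2 fold change in MG-63 was 0.59 ± 0.12 for DDR (adjusted p = 4.17e-04) and 0.49 ± 0.12 for Roc (adjusted p = 0.00574, under the fold minimum). In Saos2 it was 0.29 ± 0.11 with DDR (adjusted p = 0.0675), while Roc gave 0.69 ± 0.11 (adjusted p = 4.48e-05). Without MG-63 DDR replicate 2 the DDR value of SOX12 was 0.47 and no longer passed, and without MG-63 DMSO replicate 1 or Roc replicate 2 the Roc value was 0.57 or 0.54 and passed.

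SOX11 (ENSG00000176887, chromosome 2), the third SOXC gene and a strong activator in neural progenitors, was measurable in MG-63 only. Its level there was 14.8 and 14.0 CPM with DDR, 16.2 and 12.5 CPM with Roc, and 10.0 and 11.7 CPM with DMSO. Each treated library lay above both DMSO libraries, but the fold changes of 0.43 ± 0.14 for DDR (adjusted p = 0.0241) and 0.46 ± 0.15 for Roc (adjusted p = 0.0292) were under the fold minimum. Without MG-63 DMSO replicate 2 the DDR value was 0.54, and without Roc replicate 2 the Roc value was 0.67, and these passed. In all 9 Saos2 libraries together SOX11 had 1 count, in a DMSO library. The Saos2 DDR and Roc libraries, with no count, allow a level of up to 0.029 and 0.025 CPM (3 counts over each group; counting error only). With DMSO, the MG-63 level was 1345 times that of Saos2, with a 95% counting interval of 241 to 53203. SOX11 shares 74 of its 9002 exon bases with a long noncoding RNA on the same strand (ENSG00000242540).

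**Figure D4:**
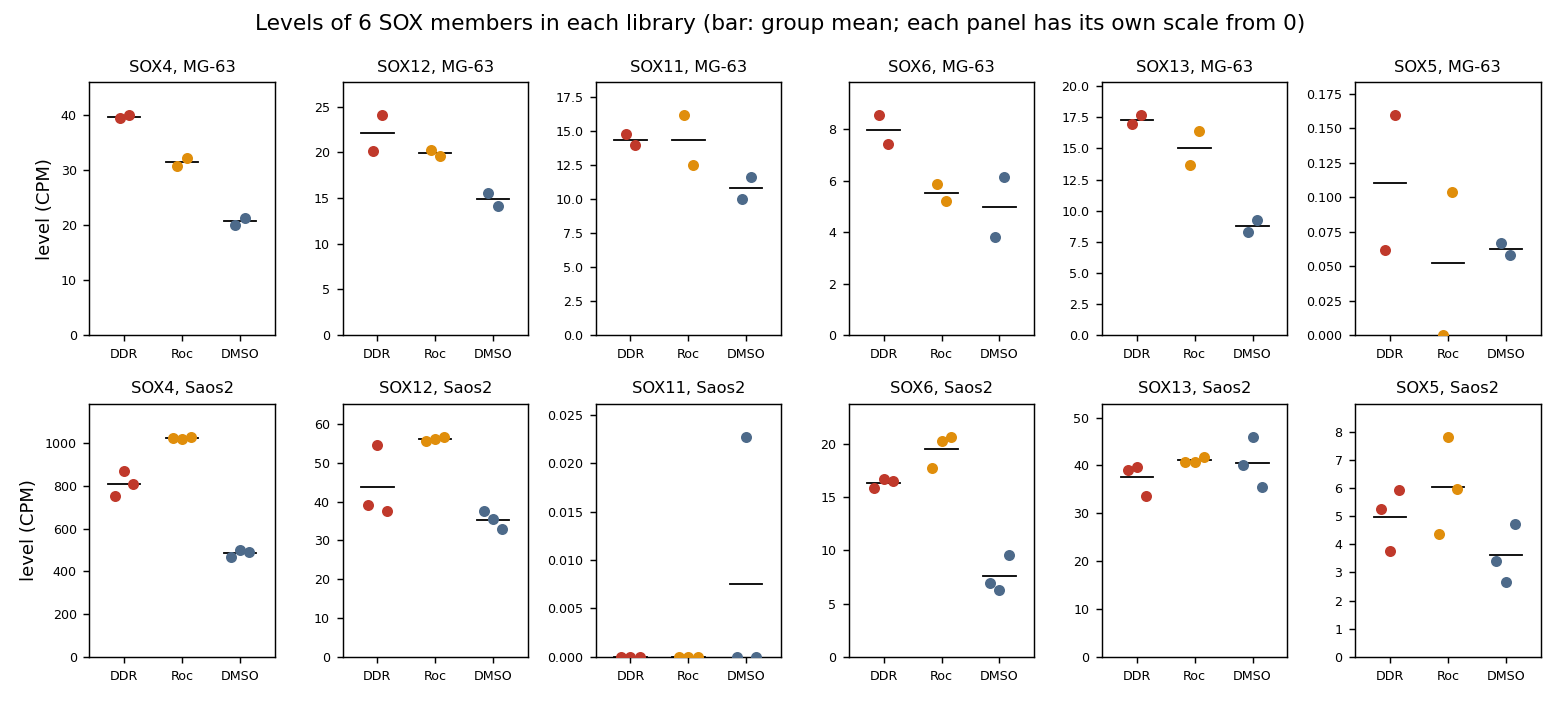
Level (CPM, y axes from 0, a separate scale in each panel) of SOX4, SOX12, SOX11, SOX6, SOX13 and SOX5 in each library of MG-63 (upper row) and Saos2 (lower row) with DDR, Roc and DMSO; points are libraries and bars group means. SOX4 lies above DMSO in every treated library of both lines, and SOX13 in every treated library of MG-63, while SOX11 in Saos2 holds 1 count in all.

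SOX6 (ENSG00000110693, chromosome 11, 15987995 to 16761138, minus strand), a SOXD partner of SOX9, rose in 3 of the 4 comparisons. In Saos2 its level was 15.8, 16.7 and 16.5 CPM with DDR, 17.7, 20.2 and 20.6 CPM with Roc, and 6.93, 6.24 and 9.59 CPM with DMSO. Treated and DMSO libraries did not overlap, with log2 fold changes of 1.08 ± 0.14 for DDR (adjusted p = 5.30e-06) and 1.38 ± 0.14 for Roc (adjusted p = 6.65e-08). In MG-63 its level was 8.55 and 7.43 CPM with DDR, 5.88 and 5.20 CPM with Roc, and 3.80 and 6.16 CPM with DMSO. The MG-63 DDR libraries lay above DMSO (0.69 ± 0.20, adjusted p = 0.00991), and the Roc libraries fell inside the range of DMSO (0.21 ± 0.21, adjusted p = 0.556). The MG-63 rise with DDR did not pass without DMSO replicate 1 (0.41, adjusted p = 0.204) or DDR replicate 1 (0.57, adjusted p = 0.0718).

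The change of SOX6 differed between the lines with Roc. The change in Saos2 minus that in MG-63 was 1.22 ± 0.27 with Roc (adjusted p = 0.00263) and 0.43 ± 0.27 with DDR (adjusted p = 0.305). Without MG-63 DMSO replicate 2, the Roc difference was 0.82 with an adjusted p of 0.0798. With Roc, 2 of the 4 members tested in both lines differed, 1 in each direction, where 13.0% of all genes did, and with DDR 1 of 4 did, where 13.3% of all genes did.

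SOX13 (ENSG00000143842, chromosome 1, 204042243 to 204096871, plus strand), a SOXD factor known to bind TCF1 and to act in T cell development in the mouse, was the member that rose in MG-63 alone. Its level in MG-63 was 17.0 and 17.7 CPM with DDR, 13.6 and 16.4 CPM with Roc, and 8.26 and 9.26 CPM with DMSO. In Saos2 it was 39.1, 39.7 and 33.7 CPM with DDR, 40.7, 40.7 and 41.9 CPM with Roc, and 40.1, 45.9 and 35.5 CPM with DMSO. The MG-63 groups were apart, and the Saos2 groups overlapped. In MG-63 the log2 fold change was 1.00 ± 0.13 for DDR (adjusted p = 3.11e-06) and 0.85 ± 0.14 for Roc (adjusted p = 9.65e-05). In Saos2 it was -0.13 ± 0.10 with DDR (95% interval -0.34 to 0.08, adjusted p = 0.385), while Roc gave 0.04 ± 0.10 (95% interval -0.17 to 0.25, adjusted p = 0.788). The difference between the lines was -1.09 ± 0.17 with DDR (adjusted p = 1.60e-04), while Roc gave -0.76 ± 0.18 (adjusted p = 0.00332). Without MG-63 Roc replicate 2 the Roc difference of SOX13 was -0.61, with an adjusted p of 0.0566.

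SOX5 (ENSG00000134532, chromosome 12, minus strand), the other SOXD partner of SOX9, was measurable in Saos2 only. Its level was 5.24, 3.76 and 5.92 CPM with DDR, 4.37, 7.81 and 5.96 CPM with Roc, and 3.41, 2.68 and 4.73 CPM with DMSO. The treated libraries overlapped DMSO for both compounds. The log2 fold change was 0.45 ± 0.24 with DDR (adjusted p = 0.185), while Roc gave 0.77 ± 0.24 (adjusted p = 0.0129), and the Roc rise did not pass without DMSO replicate 1 (0.70, adjusted p = 0.0622), DMSO replicate 2 (0.56, adjusted p = 0.103) or Roc replicate 2 (0.51, adjusted p = 0.144). Without DMSO replicate 3 the DDR value was 0.69 and passed, with an adjusted p of 0.0491. In MG-63, SOX5 had 0 to 5 counts in each library. With DMSO, the Saos2 level was 58.5 times that of MG-63 (95% counting interval 22.7 to 215.6).

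SOX8 (ENSG00000005513, chromosome 16), the SOXE paralogue of SOX9, was at the edge of detection. It had 0 to 4 counts in MG-63 libraries and 1 count in all 9 Saos2 libraries together, and it was tested in neither line. The MG-63 Roc libraries, with no count, allow a level of up to 0.060 CPM.

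Between the compounds, no member, SOX9 included, passed both thresholds in either line, where 1.20% of all genes differed in MG-63 and 3.76% in Saos2. By edgeR, an unadjusted p under 0.05 was found for SOX4 and SOX6 in MG-63 and for SOX4, SOX6, SOX9 and SOX12 in Saos2. By DESeq2 and by limma-voom the count of members other than SOX9 was also 0 in both lines. Besides SOX4, the Saos2 difference of SOX12 (0.40 ± 0.11, adjusted p = 0.0270) had an adjusted p under 0.05 and lay under the fold minimum, and without Saos2 DDR replicate 2 it was 0.57 and passed. For SOX6, Roc over DDR was -0.48 ± 0.21 in MG-63 (95% interval -0.91 to -0.06, adjusted p = 0.190) and 0.30 ± 0.14 in Saos2 (95% interval 0.01 to 0.58, adjusted p = 0.184). The widest interval was that of SOX5 in Saos2, -0.17 to 0.81. The compounds were used at different concentrations, so these values compare treatments at the IC50 of each and not equal doses.

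With DMSO alone, all 4 other members tested in both lines were higher in Saos2. In this comparison 67.7% of all genes differed, counted in either direction, and the median of all genes was 0.16. SOX11, below the filter in Saos2 and so not among them, was higher in MG-63. Saos2 over MG-63 was 4.56 ± 0.09 for SOX4 (adjusted p = 1.34e-22), 2.21 ± 0.13 for SOX13 (adjusted p = 1.30e-13), 1.25 ± 0.14 for SOX12 (adjusted p = 1.05e-08) and 0.60 ± 0.20 for SOX6 (adjusted p = 0.00780). With library totals as the only scaling, which puts the median of all genes at 0.64, these were 5.04, 2.69, 1.73 and 1.08. SOX6 did not pass without MG-63 DMSO replicate 1 (0.30, adjusted p = 0.241) or Saos2 DMSO replicate 3 (0.39, adjusted p = 0.0670). With SOX5 higher in Saos2 and SOX11 nearly confined to MG-63, the lines held different sets of SOX genes with DMSO alone.

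Of 11 further SOX genes on the list, 3 were tested in each line and none passed. SOX7, a SOXF factor of endothelial cells, was 0.44 ± 0.17 with DDR in MG-63 (adjusted p = 0.0427, under the fold minimum) and 0.26 ± 0.17 with Roc. Without MG-63 DDR replicate 1 the DDR value of SOX7 was 0.56. In Saos2 SOX7 was 0.08 with DDR and -0.35 with Roc. SOX18, another SOXF factor, was tested in both lines with fold changes of 0.24 to 0.55 and adjusted p of 0.170 or more. SOX1, a neural SOXB factor, was tested in Saos2 only (0.47 ± 0.36 with DDR and 0.40 ± 0.36 with Roc) and SOX17, a SOXF factor of endoderm, in MG-63 only (0.08 ± 0.86 with DDR and -0.01 ± 0.96 with Roc).

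The promoters of SOX4, SOX6 and SOX13 are shown because of where these genes rose. SOX4 rose with both compounds in both lines, and SOX13 in MG-63 alone. SOX6 rose with both compounds in Saos2 and with DDR only in MG-63, a call that depended on single libraries. RefSeq promoters on GRCh38.p14 matched 5 of the 8 members (SOX4, SOX5, SOX6, SOX12 and SOX13). Each sequence is the 250 bases before the start of the gene, on the strand of the gene. Capitals mark matches on either strand to the CCAAT box (CCAAT), the AP-1 site (TGANTCA) or the SOX sites AACAAT and ACAAAG.
SOX4 (chr6:21593501-21593750, plus strand): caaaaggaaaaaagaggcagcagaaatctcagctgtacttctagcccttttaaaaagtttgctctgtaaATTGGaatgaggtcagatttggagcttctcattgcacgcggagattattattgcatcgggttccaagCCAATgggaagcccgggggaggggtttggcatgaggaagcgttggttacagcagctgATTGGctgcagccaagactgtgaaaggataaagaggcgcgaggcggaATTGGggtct
SOX6 (chr11:16738478-16738727, minus strand, the first of 5 listed): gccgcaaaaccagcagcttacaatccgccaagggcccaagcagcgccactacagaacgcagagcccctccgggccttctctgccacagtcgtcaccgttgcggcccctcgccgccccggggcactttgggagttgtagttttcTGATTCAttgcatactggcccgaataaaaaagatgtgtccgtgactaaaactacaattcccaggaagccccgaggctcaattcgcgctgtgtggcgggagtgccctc
SOX13 (chr1:204072865-204073114, plus strand): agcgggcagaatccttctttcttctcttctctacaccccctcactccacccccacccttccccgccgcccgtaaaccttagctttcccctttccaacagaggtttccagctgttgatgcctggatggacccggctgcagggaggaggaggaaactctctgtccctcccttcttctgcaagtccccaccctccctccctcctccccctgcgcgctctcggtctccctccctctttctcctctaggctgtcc

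SOX4 held 4 matches to CCAAT, which 33.0% of 27305 promoters of this length hold at least once, and SOX12 held 1. SOX6 held 1 match to TGANTCA, found in 6.60% of promoters, and SOX5 held 1 match to AACAAT, found in 9.19%. No member's window held ACAAAG, which 13.7% of promoters do, SOX13 held none of the 4 motifs, and no window held more than 1 kind, so no matches of different motifs overlapped. A match is a description of the letters in this window.

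Of 15 genes that work with SOX9 tested in MG-63, DDR treatment left 7 higher and Roc 3, with none that fell, beside 9.01% and 4.57% of all genes higher. Of 14 tested in Saos2, 2 rose with DDR and 6 with Roc, with 1 that fell in each, beside 7.55% and 13.5% of all genes higher and 6.73% and 10.4% lower. The gene that fell, named after its values were seen, was ZNF219, a zinc finger partner of SOX9 (-0.84 ± 0.21 with DDR and -0.80 ± 0.21 with Roc). The Saos2 DDR count of 3 called was 5 without DMSO replicate 3 or without DDR replicate 1. The median fold change of this list was 0.54 for DDR and 0.23 for Roc in MG-63 cells, beside 0.22 for DDR and 0.44 for Roc in Saos2 cells. EP300, an acetyltransferase that SOX9 recruits to enhancers, was 321 and 317 CPM with DDR, 222 and 223 CPM with Roc and 140.5 and 135 CPM with DMSO in MG-63. In Saos2 EP300 was 367, 381 and 399 CPM with DDR, 534, 479 and 495 CPM with Roc, and 158, 163 and 176 CPM with DMSO, so that its groups were apart in both lines. Its log2 fold change was 1.23, 0.76, 1.19 and 1.62 in MG-63 with DDR, MG-63 with Roc, Saos2 with DDR and Saos2 with Roc (SE 0.07 to 0.08; all 4 passed).

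SMAD3, which carries TGF-beta signals and binds SOX9, likewise passed throughout. Its fold change in MG-63 was 1.01 ± 0.07 for DDR and 0.78 ± 0.07 for Roc, and in Saos2 0.62 ± 0.08 for DDR and 1.20 ± 0.08 for Roc. CREBBP, the paralogue of EP300, rose in MG-63 cells given DDR (0.62 ± 0.08) and in Saos2 cells given Roc (0.82 ± 0.08), with a Saos2 DDR value of 0.45 that passed without DDR replicate 1 (0.50). ARID5B, a demethylase partner that acts with SOX9 in cartilage, rose in the same comparisons (0.59 ± 0.07 and 0.64 ± 0.08).

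Of the cartilage matrix genes that SOX9 is known to activate, 2 passed with each compound in MG-63. In Saos2, 0 passed with DDR and 2 with Roc. Whether these counts differ from the shares of all genes was not tested. The shares of all genes were 9.01% higher and 7.74% lower (DDR) and 4.57% and 2.53% (Roc) in MG-63, then 7.55% and 6.73% (DDR) and 13.5% and 10.4% (Roc) in Saos2. In MG-63, 10 of 20 were tested, and 1 rose (XYLT1) and 1 fell with each compound. The gene that fell, named after its values were seen, was COL27A1, a fibrillar collagen (-0.71 ± 0.19 with DDR and -0.70 ± 0.19 with Roc). COL27A1 did not pass with DDR without DDR replicate 2 (-0.46, adjusted p = 0.112), nor with Roc without DMSO replicate 1, DMSO replicate 2 or Roc replicate 2 (adjusted p up to 0.0669). The MG-63 Roc count of 2 called was 5 with no filter on low counts, 4 by limma-voom, 1 with library totals only or a minimum mean of 1 CPM, 1 without DMSO replicate 2 and 0 without Roc replicate 2. The MG-63 DDR count was 4 without DDR replicate 1. In Saos2, 15 were tested, none passed with DDR, and 1 rose (MATN3, a cartilage matrilin, 1.39 ± 0.45) and 1 fell (EPYC) with Roc. MATN3 did not pass without DMSO replicate 2, DMSO replicate 3, Roc replicate 2 or Roc replicate 3 (1.04 to 1.29, adjusted p up to 0.105), and with DDR it passed without DMSO replicate 1 (1.51, adjusted p = 0.0317). The Saos2 Roc count of 2 was 1 with a minimum mean of 1 CPM, without DMSO replicate 3 or without Roc replicate 2. The median fold change was 0.55 (DDR; -0.05 without DDR replicate 2) and -0.06 (Roc) in MG-63, then -0.10 (DDR) and -0.13 (Roc) in Saos2. XYLT1, which starts the sugar chains of proteoglycans, rose in MG-63 by 0.68 ± 0.07 for DDR and 0.52 ± 0.07 for Roc. The Roc value lay just under the fold minimum in 4 of 12 alternatives, the lowest being 0.47 without Roc replicate 2. In Saos2 XYLT1 was -0.31 ± 0.09 with DDR (adjusted p = 0.0131, under the fold minimum) and -0.16 ± 0.09 with Roc (adjusted p = 0.168).

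EPYC, the cartilage proteoglycan epiphycan, was 50.3, 40.8 and 62.0 CPM with DDR, 32.5, 31.7 and 37.6 CPM with Roc, and 55.9, 47.1 and 57.3 CPM with DMSO in Saos2. The Roc libraries of Saos2 lay below all the DMSO libraries, with a fold change of -0.63 ± 0.12 (adjusted p = 2.84e-04), and EPYC had 0 to 4 counts in MG-63. HAPLN1, the link protein of cartilage matrix, was -0.37 ± 0.09 with Roc in Saos2 (adjusted p = 0.00249) and COL11A1, a fibrillar cartilage collagen, -0.44 ± 0.08 (adjusted p = 1.76e-04), both under the fold minimum, which COL11A1 passed in 3 alternatives (-0.52 to -0.55). In MG-63, the COL11A1 fold change with DDR was 0.90 ± 0.76 (adjusted p = 0.389) and -5.14 without DDR replicate 2, the library with 145 of the 146 counts.

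Regulators of the cartilage lineage rose or did not pass: in MG-63, 4 of 10 passed upward for DDR and 3 of 10 for Roc, and in Saos2 5 of 15 for DDR and 6 of 15 for Roc, with none that fell. The shares of all genes that rose were 9.01%, 4.57%, 7.55% and 13.5% in the same order. The MG-63 DDR count was 2 by DESeq2, 2 without DMSO replicate 1 and 2 without DDR replicate 2, the MG-63 Roc count was 1 without Roc replicate 2, and the Saos2 DDR count was 3 without DDR replicate 2. TRPS1, a GATA-type repressor of growth-plate chondrocytes, rose in Saos2 by 0.61 ± 0.08 for DDR and 1.05 ± 0.08 for Roc, and was -0.01 ± 0.07 and -0.03 ± 0.07 in MG-63 with DDR and Roc. MEF2C, a factor of chondrocyte maturation, rose in Saos2 by 0.73 ± 0.08 for DDR and 0.98 ± 0.08 for Roc and did not pass in MG-63. RUNX3, which acts beside RUNX2 in chondrocytes, rose in MG-63 by 1.04 ± 0.10 for DDR and 0.56 ± 0.10 for Roc, the second not without Roc replicate 1 (0.44). In Saos2, RUNX3 was -0.38 ± 0.08 and -0.34 ± 0.08, under the fold minimum, with DDR and Roc. BMPR1B, a BMP receptor, was tested in Saos2 only and rose by 0.71 ± 0.10 for DDR and 0.97 ± 0.10 for Roc.

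Among 8 genes known as SOXC targets, 5 were tested in MG-63 and 8 in Saos2. In MG-63, 3 passed upward for DDR and 1 for Roc, and in Saos2, 1 for DDR and 2 for Roc, with none that fell. The shares of all genes that rose were 9.01%, 4.57%, 7.55% and 13.5% in the same order, near the Saos2 counts of 1 and 2 of 8. The MG-63 Roc count was 2 without Roc replicate 1, and the Saos2 Roc count was 1 without DMSO replicate 1 or without Roc replicate 1. The list's median fold change was 0.53 (DDR) and 0.24 (Roc) in MG-63, then -0.01 (DDR) and 0.16 (Roc) in Saos2. TUBB3, a neuronal tubulin, rose in MG-63 by 0.99 ± 0.16 for DDR and 0.94 ± 0.16 for Roc. TEAD2, a Hippo pathway factor, rose in MG-63 with DDR by 0.73 ± 0.16 and was -0.46 ± 0.08 with Roc in Saos2 (adjusted p = 1.51e-04, under the fold minimum, and past it in 3 alternatives, at -0.50 to -0.55). SEMA3C, a secreted guidance protein, rose in MG-63 cells given DDR (0.53 ± 0.08) and in Saos2 cells given Roc (0.84 ± 0.30), where its level was 1.19 to 3.82 CPM. The MG-63 value lay under the fold minimum with library totals only (0.48) or without DDR replicate 2 (0.50). The Saos2 value did not pass with library totals only (0.74, adjusted p = 0.0586), without DMSO replicate 1 (0.67, adjusted p = 0.138) or 2 (0.85, adjusted p = 0.0749), or without Roc replicate 1 (0.50, adjusted p = 0.271). With Roc in MG-63 SEMA3C was 0.43 and passed without Roc replicate 1 (0.51). PROX1, a homeobox factor, was tested in Saos2 only and rose by 0.82 ± 0.16 for DDR and 0.77 ± 0.16 for Roc.

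Osteoblast genes moved in both directions in Saos2. IBSP, bone sialoprotein, was 36.3, 35.3 and 36.4 CPM with DDR, 9.92, 9.93 and 10.8 CPM with Roc, and 83.4, 104 and 95.5 CPM with DMSO. IBSP fell by 1.40 on the log2 scale with DDR and by 3.18 with Roc (SE 0.09 and 0.10), and SPP1, osteopontin, fell by 1.16 and 2.47 (SE 0.18 and 0.19). SP7, the osteoblast factor osterix, rose by 0.75 ± 0.09 for DDR and 1.10 ± 0.09 for Roc in Saos2, and COL1A1, the main bone collagen, by 0.79 ± 0.08 with Roc. Over the 9 osteoblast markers, 8 were tested in Saos2. DDR left 1 higher and 2 lower, beside 7.55% of all genes higher and 6.73% lower. Roc left 2 higher and 2 lower, beside 13.5% of all genes higher and 10.4% lower. Whether these counts differ from the shares was not tested. In MG-63, 5 were tested and 1 rose with each compound, beside 9.01% (DDR) and 4.57% (Roc) of all genes. The gene that rose was RUNX2, the master factor of osteoblasts, also held by the cofactor list (1.11 ± 0.14 with DDR and 1.01 ± 0.14 with Roc). The MG-63 DDR count was 2 with no filter on low counts or no fold minimum, and it depended on single libraries. SPP1 with DDR in MG-63, which did not pass at 1.93, was 7.19 without DMSO replicate 1 and 2.92 without DDR replicate 1.

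The genes whose 4 fold changes against DMSO lay nearest to those of SOX9 were AFAP1L2, NAV3, KRCC1, DUSP19 and TNFRSF11B, among 9805 protein-coding genes with at least 2 CPM on average in each line. Likeness was the Euclidean distance over the 4 log2 fold changes, and it was 0.75 for AFAP1L2 and 1.20 for TNFRSF11B. AFAP1L2, an actin-associated signalling adaptor, was 4.04 and 2.10 CPM with DDR, 4.28 and 4.54 CPM with Roc, and 8.83 and 8.13 CPM with DMSO in MG-63. The Saos2 level was 10.8, 12.4 and 15.6 CPM with DDR, 18.8, 14.7 and 19.9 CPM with Roc, and 9.22, 9.30 and 8.51 CPM with DMSO. Its treated libraries lay below DMSO in MG-63 and above it in Saos2, which follows from its choice by likeness to SOX9.

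NAV3, a microtubule-binding protein, was 24.6 and 25.1 CPM with DDR, 27.2 and 22.4 CPM with Roc, and 64.3 and 58.9 CPM with DMSO in MG-63, with log2 fold changes of 0.49 and 0.57 with DDR and Roc in Saos2. The first passed without Saos2 DMSO replicate 3 (0.58) or DDR replicate 1 (0.53), and the second did not with library totals only (0.48) or without DMSO replicate 1 (0.48) or 2 (0.49). TNFRSF11B, the decoy receptor osteoprotegerin, was 190.0 and 211 CPM with DDR, 235 and 259.6 CPM with Roc, and 619 and 643 CPM with DMSO in MG-63. In Saos2 TNFRSF11B stood at 7.10 to 13.2 CPM in all groups, with fold changes of 0.04 with DDR and 0.52 with Roc. Of these 9805 genes, 6 rose in both MG-63 comparisons and fell in both Saos2 comparisons. Besides SOX9, 5 went the other way and fell in both MG-63 comparisons and rose in both Saos2 comparisons. These were AFAP1L2, KRCC1, ITPR1, a calcium channel of the endoplasmic reticulum, NTM, a neural adhesion protein, and PER3, a circadian clock protein. Some of these calls changed with the processing or with 1 library. AFAP1L2, at 0.50 with DDR in Saos2, no longer passed in 8 of 14 alternatives (0.34 with an adjusted p of 0.127 without Saos2 DDR replicate 3, and 0.46 without DMSO replicate 3), nor with Roc in MG-63 without DMSO replicate 1 (-0.80, adjusted p = 0.0623). In MG-63, ITPR1 lost its Roc call without any 1 of the 4 libraries compared (adjusted p up to 0.166) and its DDR call without DMSO replicate 1 (-0.55, adjusted p = 0.0512). NTM lost its DDR call without DMSO replicate 2 (-0.52, adjusted p = 0.0597) and its Roc call without DMSO replicate 2 (-0.55, adjusted p = 0.0936) or Roc replicate 2 (-0.51, adjusted p = 0.0791), and PER3 its Roc call without DMSO replicate 1 (-0.48, adjusted p = 0.136). The comparisons in a line share their DMSO libraries.

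**Figure D5:**
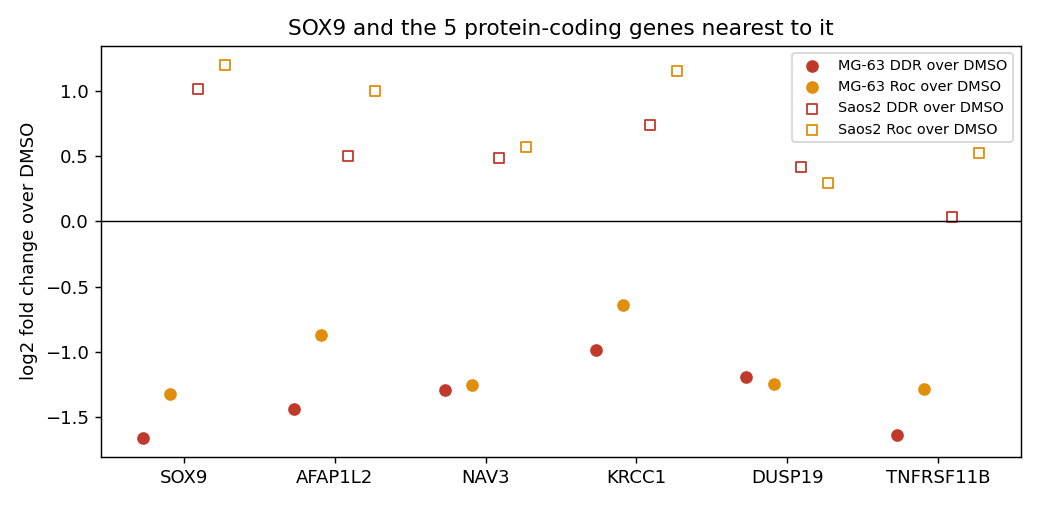
Log2 fold change over DMSO (y axis) of SOX9 and the 5 protein-coding genes nearest to it over the 4 comparisons; filled circles are MG-63, open squares Saos2, red DDR and orange Roc. AFAP1L2 runs from -1.44 with DDR in MG-63 to 1.00 with Roc in Saos2, and TNFRSF11B stays near 0 with DDR in Saos2 at 0.04.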

How the data were processed

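Each count is a raw read count per gene that the authors deposited without normalization. By the study's methods and the submitters' processing notes, TruSeq stranded mRNA libraries were filtered with Bowtie2 2.5.1, aligned with STAR 2.7.3a to GRCh37 and counted with HTSeq 0.11.2. HTSeq's strand option and its annotation could not be read from the sources at hand. Another 55 columns of per-sample values (normalized counts and copies of counts) and the authors' own comparisons (fold changes and p-values) were not used.

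For each line, edgeR 4.0.16 in R 4.3.3 (filterByExpr, TMM scaling, glmQLFit and glmQLFTest) took its 3 groups in 1 model. Differences between the lines came from a joint fit of 15 libraries as 6 groups over the 52684 Ensembl IDs in both tables, which kept 18842 genes. CPM use the scaling of that joint fit. SOX5, SOX8 and SOX11, below the filter in a line, get no difference between the lines. On simulated data, 94% of 200 genes changed by a log2 of 1 were recovered in MG-63 DDR over DMSO among 14927 genes. In Saos2 DDR over DMSO it was 90% among 17147, and for a line difference with DDR 78% of 200 among 17813. The changed genes were drawn from well-counted ones only, so these shares do not hold for genes of low count. The line simulation gave each gene the same mean in both lines before the change, unlike the data.

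Alternatives were other scalings, filters, DESeq2 1.42.0, limma 3.58.1 voom, left-out libraries, the 2 groups compared alone, gene matching by symbol and a replicate block. FPKM values were planned and not used here. Replicates of a group differed beyond sampling noise (chi-square per gene 6.90 to 25.9). Named genes are the 8 members, other tested SOX genes, the 4 genes of smallest p in each list, the 5 nearest to SOX9 and genes whose exons overlap a member; marker lists are given by the genes that describe the lines. Lists were written from general knowledge. The members and lists were chosen with earlier results of these data known.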

Additional observations from a re-analysis of the deposited data

Results flagged for a closer look

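Of the members other than SOX9, 3 responses differed between the lines by the test of the difference itself (edgeR, joint fit, Saos2 minus MG-63). SOX13 differed by -1.09 with DDR (adjusted p = 1.60e-04) and by -0.76 with Roc (adjusted p = 0.00332). SOX6 differed by 1.22 with Roc (adjusted p = 0.00263). The direction of each was the same in every alternative run. The SOX13 difference with Roc did not pass without MG-63 Roc replicate 2 (-0.61, adjusted p = 0.0566), nor that of SOX6 without MG-63 DMSO replicate 2 (0.82, adjusted p = 0.0798). Line and any batch of the line's libraries cannot be told apart. Groups of 2 or 3 libraries are too small for a check of single outlying samples.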

How the results depend on the processing

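Leaving out 1 library at a time, the number of members other than SOX9 that passed was 3 to 5 for MG-63 DDR (4 with all libraries), 2 to 4 for MG-63 Roc (2), 2 to 3 for Saos2 DDR (2), 3 to 4 for Saos2 Roc (4), 0 to 1 for Saos2 Roc over DDR (0), 1 to 3 for the line difference with Roc (2) and 3 to 4 for the DMSO baseline (4). The counts that moved most were 4 for MG-63 Roc without MG-63 Roc replicate 2, 1 (SOX12) for Saos2 Roc over DDR without Saos2 DDR replicate 2, and 1 for the line difference with Roc without MG-63 DMSO replicate 2. With no fold minimum the count was 4 for MG-63 Roc and 2 for Saos2 Roc over DDR, since members under the minimum then count. Where a left-out library leaves 1 in its group, that library is assumed to vary like those of the other groups. SOX9 kept its direction in every alternative. Its log2 fold change over the left-out libraries was -2.06 to -1.36 (MG-63 DDR), -1.44 to -1.21 (MG-63 Roc), 0.91 to 1.07 (Saos2 DDR) and 1.08 to 1.24 (Saos2 Roc), with line differences of 2.39 to 3.11 (DDR) and 2.49 to 2.65 (Roc). With library totals only, the line difference of SOX9 with Roc was 2.46. The COL11A1 change in MG-63 with DDR (0.90) reversed to -5.14 without MG-63 DDR replicate 2 and was 1.89 without replicate 1.

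For the members other than SOX9, 568 of 586 alternative values kept their side of the threshold, 10 no longer passed and 8 came to pass, and all 18 changes came from left-out libraries. The sign differed in 9 values of 4 results that did not pass: SOX6 MG-63 Roc (0.21, lowest -0.08), SOX13 Saos2 Roc (0.04, lowest -0.05), SOX11 MG-63 Roc over DDR (0.04, lowest -0.18) and SOX12 MG-63 Roc over DDR (-0.10, highest 0.01). For other named genes, 2017 of 2114 values kept their side, and 244 of 280 list counts stayed within 1.5 times. Alternatives for lists and other named genes were chosen after seeing the data.

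With the replicate block, the counts of called members were 4 (MG-63 DDR), 2 (MG-63 Roc), 2 (Saos2 DDR), 4 (Saos2 Roc), 0 for both Roc over DDR comparisons, 1 and 2 for the line differences and 4 for the baseline, as without it. SOX9 was -1.67, -1.33, 1.02 and 1.21 with the block. Same-numbered libraries correlated at -0.02 to 0.03 among MG-63 libraries and -0.03 to 0.26 among Saos2 libraries (deviations from group means, across genes), and the numbers were not used to pair the libraries. Between Saos2 DMSO and DDR all 3 same-number values were over 0.1 (0.12, 0.12 and 0.26) and above every other-number value, while those of Roc with DMSO were 0.004 to 0.06 and with DDR -0.03 to 0.10. The block on Saos2 DDR over DMSO took AFAP1L2 to 0.49, under the fold minimum. FPKM fits were not run. Counts were too low for a test of SOX8 in both lines, SOX5 in MG-63 and SOX11 in Saos2.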
